A study of Mus musculus with 23 samples.

Results

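The amino acid transporter genes of mouse osteocyte-enriched cortical bone were followed in 2 RNA sequencing experiments. They were chosen by symbol alone, as the genes that start with Slc1a, Slc3a, Slc6a, Slc7a, Slc36a, Slc38a or Slc43a in the deposited count tables. Of 16232 genes in either table, 51 met this rule, and 48 of them were in both tables. Slc38a3 was in the 2-week table only, and Slc7a9 and Slc7a14 were in the single-bout table only. In the 2-week experiment all 49 members passed the filter on low values and were tested, and in the single-bout experiment 49 of 50 were tested, with Slc7a9 left out by the filter. The symbol rule also takes in Slc7a6os, a gene on the opposite strand of Slc7a6 that encodes no carrier, 3 monoamine carriers (Slc6a2, Slc6a3 and Slc6a4) and Slc43a3, a purine base carrier.

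All mice were wild-type C57BL/6 males aged 5 months, and in every mouse the right tibia was loaded at 8.25 N while the left tibia of the same mouse served as the nonloaded control. Vehicle mice drank regular water, and L-BAIBA mice received 100 mg/kg of L-β-aminoisobutyric acid, a muscle-derived β-amino acid, in the drinking water. In the 2-week experiment the tibiae received 3 bouts per week for 2 weeks, and in the single-bout experiment L-BAIBA mice were treated for 5 days and the tibiae received 1 bout. Bone was taken 24 hours after the last bout in both. Both tibiae of both treatments gave 4 groups per experiment with 3 libraries each, except for 2 libraries of single-bout L-BAIBA nonloaded tibiae, or 23 libraries in all. A library held the tibiae of 1 side pooled from 2 mice, and most loaded libraries have a nonloaded partner from the same mice, so the nonloaded tibia is an internal control of treated animals and not of an unloaded mouse.

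Amino acid carriers of these families move amino acids across the plasma membrane or the lysosomal membrane. Carriers of the Slc6 family use the sodium and chloride gradients and include those for γ-aminobutyric acid (GABA), taurine, creatine, betaine and glycine. The Slc38 family holds the sodium-coupled carriers of small neutral amino acids and glutamine, the Slc36 family the proton-coupled carriers, and the Slc7 light chains work as exchangers bound to an Slc3 heavy chain. In bone, glutamine, proline and taurine uptake are known to serve osteoblasts, and many carriers are raised by the transcription factor ATF4 when amino acids are scarce. BAIBA resembles β-alanine, taurine and GABA in that its amino group is not on the carbon next to the acid group, and carriers of those substrates are described first.

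Libraries held 6368289 to 18318951 assigned counts after 2 weeks and 17811949 to 37562527 after a single bout, so single-bout values of low genes carry less counting error. Depth was not balanced between treatments either. Single-bout L-BAIBA libraries held 30621215 to 37562527 counts and vehicle libraries 17811949 to 36731435. After 2 weeks the ranges were 6368289 to 18318951 with L-BAIBA and 9627587 to 17489087 with vehicle. The part of depth in the differences was not tested. All 6 osteocyte markers (Dmp1, Mepe, Phex, Sost, Fgf23 and Pdpn) were in both tables, and their summed level ranged from 4262 to 21798 CPM (counts scaled to a common library size) over all libraries. Markers of other cells were present too, with summed neutrophil markers at 8887 to 51299 CPM, and skeletal muscle markers were at most 13.02 CPM. In the single-bout experiment several marker sums tended to lie lower or higher with L-BAIBA. Their ranges overlapped between treatments except for skeletal muscle, and these sums were not tested. Macrophage markers (6 of 6 in the table) summed to 279 to 503 CPM in L-BAIBA libraries and 474 to 607 CPM in vehicle libraries, B-lineage markers (6 of 6) to 22.4 to 175 and 163 to 239 CPM, and neutrophil markers (6 of 6) to 19788 to 51299 and 15962 to 22293 CPM. Skeletal muscle markers (4 of 6) were low but separated, at 4.69 to 7.33 CPM in L-BAIBA and 8.21 to 10.3 CPM in vehicle libraries, and adipocyte markers (7 of 7) summed to 112 to 249.5 and 180.2 to 356 CPM. Osteoclast markers (5 of 5) summed to 2166 to 2365 CPM in vehicle nonloaded, 1598 to 3066 CPM in vehicle loaded, 2373 to 2966.5 CPM in L-BAIBA nonloaded and 3035 to 3934 CPM in L-BAIBA loaded libraries. Between the nonloaded groups osteoblast markers were also separated, at 7400 to 8345 CPM with L-BAIBA and 13646.5 to 23822 CPM with vehicle. In the 2-week experiment marker sums separated L-BAIBA nonloaded from vehicle nonloaded tibiae, the comparison that gave the members described below as differing under L-BAIBA alone (such as Slc38a4, Slc36a4, Slc6a13 and Slc1a5). Osteocyte markers were at 10683 to 15688 against 6817 to 7430 CPM, and markers of periosteum, tendon and joint surface at 376 to 633 against 256 to 299.9 CPM. B-lineage markers were at 164 to 188 against 217 to 358 CPM, and erythroid markers (3 of 5) at 1659 to 3299.7 against 3694 to 4469 CPM. Between loaded and nonloaded 2-week vehicle tibiae, the comparison that gave Slc6a8 and Slc7a2, erythroid markers (3 of 5) were at 1714 to 3136 against 3694 to 4469 CPM and skeletal muscle markers (3 of 6) at 5.30 to 7.65 against 8.89 to 11.3 CPM. Neutrophil markers were at 8887 to 12872 against 12775 to 22031 CPM there, and all 6 were lower in the loaded tibiae, 4 of them at an unadjusted p under 0.05. Single-bout L-BAIBA loaded library 3 stood apart with osteoblast markers at 43225 CPM and chondrocyte markers at 1386 CPM. The part of these cell differences in the results below was not tested. In bulk RNA, fewer cells of a type and less RNA per cell cannot be told apart.

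Levels between genes were compared as CPM per kilobase of exon. The highest means in the 2-week experiment were those of Slc38a2 (77.0 ± 27.8, SD, n = 12), the system A carrier SNAT2, Slc3a2 (69.1 ± 11.7), the 4F2 heavy chain, Slc43a3 (63.8 ± 13.03) and Slc1a5 (63.6 ± 15.7), the glutamine exchanger ASCT2. Next in that experiment came Slc43a1 (45.6), the system L carrier LAT3, Slc6a6 (41.1), the taurine and β-alanine carrier, Slc38a10 (34.4), Slc7a5 (31.0), the large neutral exchanger LAT1, Slc36a2 (29.2) and Slc38a5 (26.6), the system N carrier SNAT5. In the single-bout experiment the 10 highest means per kilobase were those of Slc38a2 (66.4), Slc1a5 (62.5), Slc43a3 (61.5), Slc3a2 (58.6), Slc6a6 (46.8), Slc43a1 (41.1), Slc7a5 (29.8), Slc38a10 (27.4), Slc6a9 (23.2), the glycine carrier GlyT1, and Slc38a5 (22.9). Thus 9 of the 10 highest were shared. Means over 20 CPM per kilobase were seen for 11 members after 2 weeks and 10 after a single bout, and means under 1 for 15 and 16. Every pair of neighbours in these orders (48 of 48 and 49 of 49) overlapped in the range of its libraries. Such overlap is likely for neighbours sorted by mean, so it cannot show whether they differ, which was not tested.

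**Figure D1:**
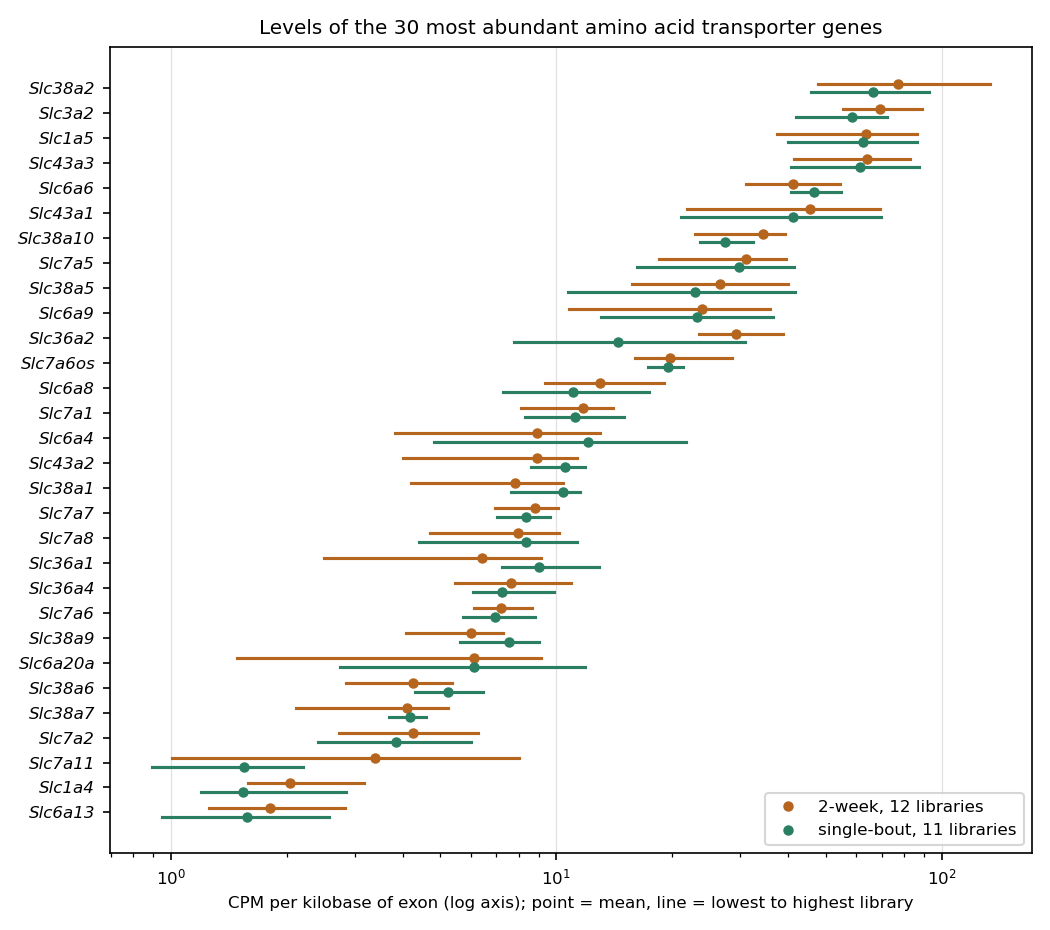
Level of the 30 most abundant members in CPM per kilobase of exon on a log axis, with the mean (point) and the lowest to highest library (line) of the 12 libraries of the 2-week and the 11 of the single-bout experiment. Slc38a2 had the highest mean in both experiments, 77.0 and 66.4 CPM per kilobase, and the ranges of neighbours overlap.

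Group differences were tested with edgeR's quasi-likelihood test over all genes, and p-values were adjusted over all of them by Benjamini-Hochberg. In that test no member, and no gene of either table, had an adjusted p under 0.05 in any comparison. The smallest adjusted p of a member was 0.475 after 2 weeks and 0.145 after a single bout. Differences below are therefore given at an unadjusted p under 0.05 and described as higher or lower, with the share of all tested genes past the same threshold beside each count. These p-values measure the spread between libraries, with both tibiae of a pool of 2 mice entering as separate libraries, and the comparisons of an experiment share control libraries, so their values are set side by side and not counted as independent. Where a value is given without a named library, or with mouse pool as a block, the unadjusted p was then over 0.05 unless it is said that the call held. With the pool as a fixed block, a loading difference rests only on pools that gave both tibiae. After 2 weeks vehicle loaded library 2 and vehicle nonloaded library 3 had no partner and carry no weight there. After a single bout vehicle loaded library 3, vehicle nonloaded library 1 and L-BAIBA loaded library 1 had none. For 2-week loading alone the fixed block and the fit without vehicle loaded library 2 are therefore not separate checks.

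After 2 weeks, loading alone, which sets loaded against nonloaded tibiae of vehicle mice, gave 5 of 49 members past this threshold, beside 10.2% of all 15576 genes. Of the 5, 3 were higher and 2 lower, beside 6.16% and 4.01% of all genes. L-BAIBA alone, which sets the nonloaded tibiae of treated mice against those of vehicle mice, gave 9, beside 9.23%, with 5 higher (5.37%) and 4 lower (3.86%). The combination, loaded tibiae of L-BAIBA mice set against nonloaded tibiae of vehicle mice, gave 1, beside 1.88%, which was lower (0.976%) and not higher (0.905%). The combination against loading compares the loaded tibiae of both treatments and gave 0, beside 1.5%, with 0.353% of all genes higher and 1.14% lower. Loading within L-BAIBA mice gave 0 beside 1.68%, or 0.648% higher and 1.03% lower. For the combination, the combination against loading and loading within L-BAIBA mice, neither DESeq2 nor the likelihood ratio test of edgeR called a member at an adjusted p under 0.05. With mouse pool as a random block, loading alone gave 13 members and loading within L-BAIBA mice 5, beside 19.1% and 5.86% of all genes, and the latter gave 8 with the pool as a fixed block, beside 6.86%. With a library left out, loading alone gave 1 without vehicle loaded library 2 (2.56% of all genes), 3 without vehicle nonloaded library 2 (4.83%), 8 without vehicle loaded library 3 (15.7%) and 9 without L-BAIBA loaded library 1 (14.3%). L-BAIBA alone gave 4 without vehicle nonloaded library 2 (3.91%) and 14 without L-BAIBA nonloaded library 2 (12.3%). The median log2 fold change of the members was 0.08 under loading alone and −0.13 under L-BAIBA alone, beside 0.01 and −0.00 for all genes.

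After a single bout, loading alone gave 0 of 49 members past the threshold, beside 1.19% of all 15500 genes (0.858% higher and 0.329% lower), and neither other tool called a member at an adjusted p under 0.05. L-BAIBA alone gave 5, beside 3.68%, with 3 higher (2.09%) and 2 lower (1.59%). The combination gave 9, beside 16.7%, with 3 higher (7.06%) and 6 lower (9.59%). For the combination against loading there were 10, beside 18.9%, with 3 higher (8.85%) and 7 lower (10%). Loading within L-BAIBA mice gave 2, beside 3.44%, both lower (3.02%) and none higher (0.419%). With mouse pool as a fixed block, loading alone gave 4 members and loading within L-BAIBA mice 7, beside 10.6% and 5.39% of all genes. L-BAIBA alone gave 1 without L-BAIBA nonloaded library 1 (0.978% of all genes), 2 without vehicle nonloaded library 1 (2.54%) or 3 (2.27%) and 3 without vehicle nonloaded library 2 (2.75%). Without L-BAIBA loaded library 3, which stood apart, the combination and the combination against loading gave 9 (17.1%) and 8 (22.2%), and the latter gave 16 without vehicle loaded library 1 (19.7%) and 6 without vehicle nonloaded library 2 (16.9%). With all libraries, the member counts under the combination were near the background share and are no result about the family as a whole. The mean of both L-BAIBA groups was also set against the mean of both vehicle groups, a comparison added after seeing the data. Over both tibiae, 12 members passed in the single-bout experiment, beside 21.3% of all genes, with 4 higher (10.8%) and 8 lower (10.5%). In the 2-week experiment 2 passed, beside 4.06%, both higher (2.02%) and none lower (2.05%).

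**Figure D2:**
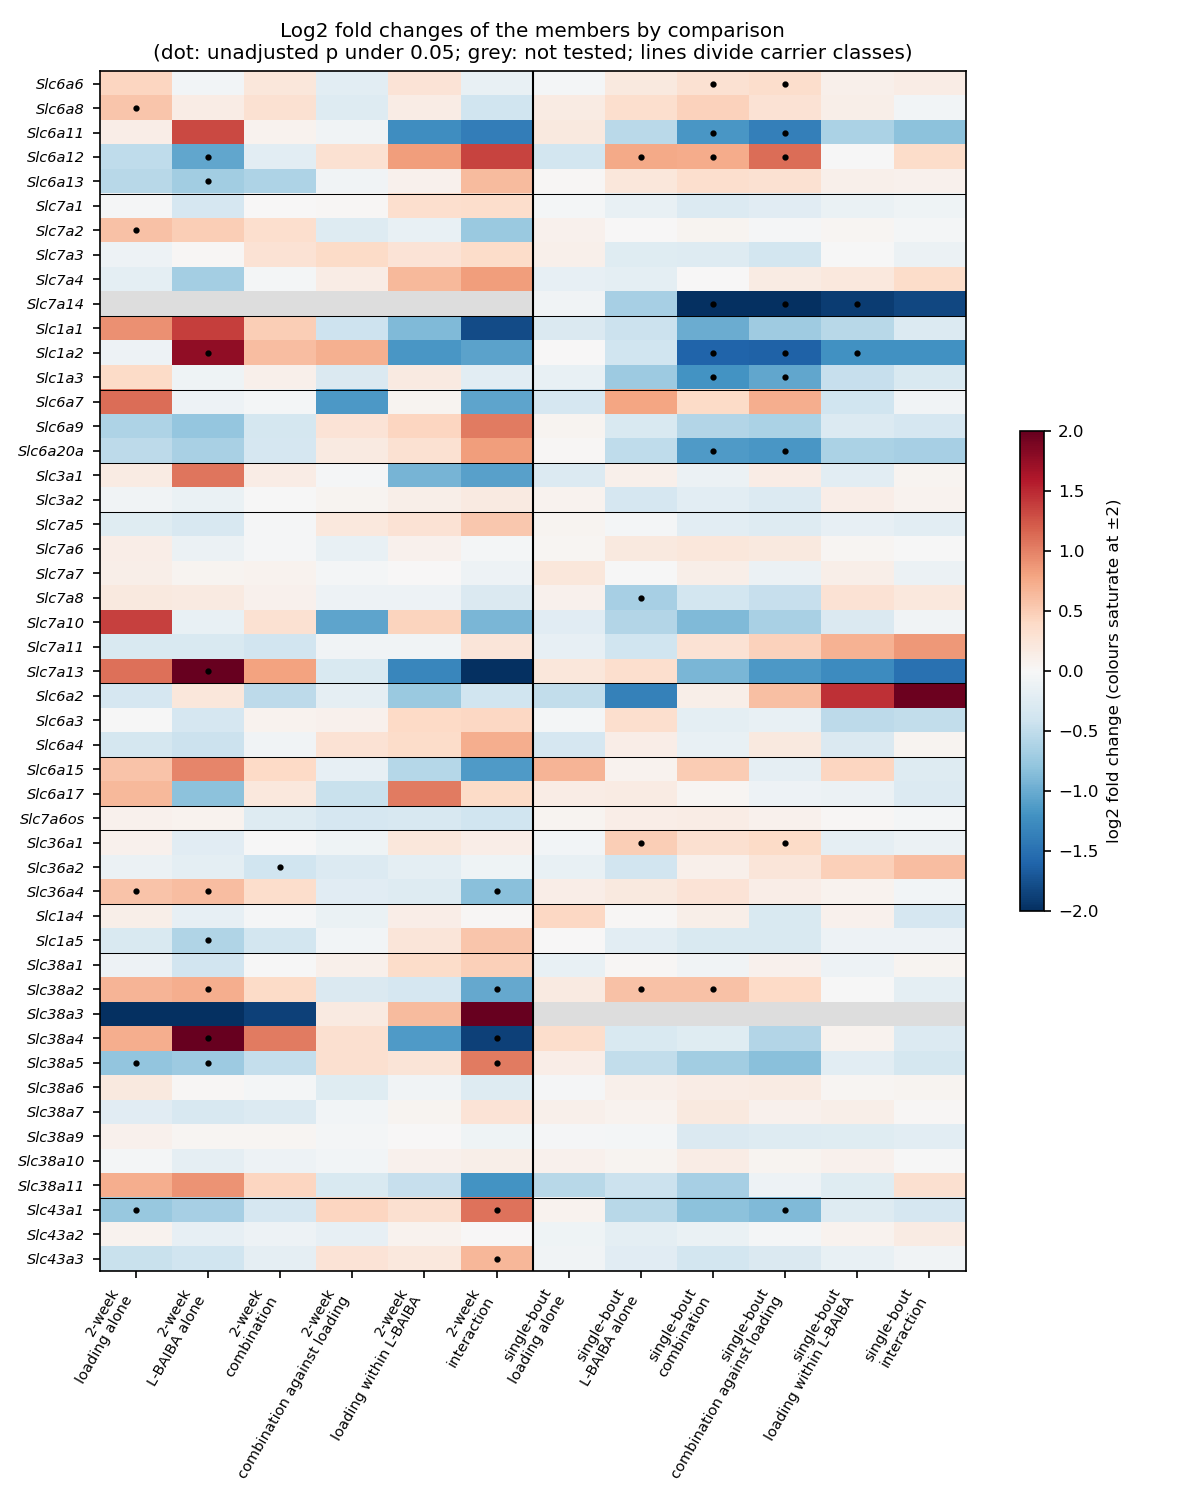
Log2 fold change of each member reported here (rows, grouped by carrier class) in each comparison of both experiments (columns), with colours from lower to higher and a dot where the unadjusted edgeR p was under 0.05. Dots were present for 9 of 49 members under L-BAIBA alone in the 2-week experiment, beside 9.23% of all genes. Under loading alone in the single-bout experiment there were 0, beside 1.19% of all genes. The 9 include Slc7a13, which passed the filter in exactly 4 libraries.

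Slc6a12 (chr6:121346697-121365773, mm10, plus strand) encodes BGT1, which carries betaine and GABA. After a single bout it measured 4.12, 4.79 and 3.88 CPM in nonloaded and 3.33, 3.42 and 3.16 CPM in loaded vehicle libraries, 9.05 and 5.30 CPM in L-BAIBA nonloaded and 6.15, 9.70 and 5.64 CPM in L-BAIBA loaded libraries. All 5 L-BAIBA libraries were above all 6 vehicle libraries. Both sets include both tibiae of the same mice, so they are not 5 and 6 independent replicates. Its log2 difference was 1.11 ± 0.26 (SE, adjusted p = 0.170) in loaded tibiae, and no single library left out ended that call. In nonloaded tibiae it was 0.75 ± 0.28 (adjusted p = 0.956), which dropped to 0.31 without L-BAIBA nonloaded library 1 and also missed 0.05 without vehicle nonloaded library 1 (0.73) or 3 (0.69). The combination gave 0.75 ± 0.25 (adjusted p = 0.241), or 0.47 without L-BAIBA loaded library 2. Over both tibiae it was 0.93 ± 0.19 (adjusted p = 0.145), with a range of 0.71 to 1.10 when each library was left out. DESeq2 and the likelihood ratio test gave adjusted p-values of 0.00237 and 0.00485 for that comparison. They too took both tibiae of a pool as separate libraries. With both tibiae of a pool summed to 1 library, the unadjusted p of edgeR's quasi-likelihood test stayed under 0.05.

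After 2 weeks the order was different. Slc6a12 measured 4.46, 4.97 and 3.50 CPM in nonloaded and 3.14, 2.35 and 3.63 CPM in loaded vehicle libraries, 1.78, 3.55 and 0.666 CPM in L-BAIBA nonloaded and 2.87, 3.42 and 4.83 CPM in L-BAIBA loaded libraries. L-BAIBA nonloaded libraries overlapped the vehicle nonloaded ones through library 2. The former held only 12, 65 and 6 counts of Slc6a12 and the latter 73, 76 and 34. The log2 difference for L-BAIBA alone was −1.04 ± 0.45 (adjusted p = 0.536), with p over 0.05 with mouse pool as a random block (−1.03) or with only the groups compared (−1.04). It ranged from −1.83 to −0.64 when each library was left out, with p over 0.05 without any of 4 libraries (vehicle nonloaded 1 and 2, −1.02 and −0.93, and L-BAIBA nonloaded 1 and 3, −0.94 and −0.64). The difference between the experiments was tested for the combination only, where it was 0.95 ± 0.51 (adjusted p = 0.520).

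The window of 250 bases before the most upstream RefSeq start of Slc6a12 is shown because the gene and its carrier are known in kidney cells to answer to NFAT5 through the tonicity element, whose core letters TGGAAA were searched on both strands. It covers chr6:121342324-121342573 (GRCm38.p6, plus strand, RefSeq), upstream of where the deposited table starts the gene. The capitals mark the match, whose first base lies 75 bases before the start. Of all 27025 genes with a first start, 18.7% held these letters in such a window, and of 35 members with a promoter entry 6 did (Slc6a12, Slc7a14, Slc38a4, Slc38a6, Slc38a7 and Slc43a2). A match of letters is a description, not a bound site.
Slc6a12: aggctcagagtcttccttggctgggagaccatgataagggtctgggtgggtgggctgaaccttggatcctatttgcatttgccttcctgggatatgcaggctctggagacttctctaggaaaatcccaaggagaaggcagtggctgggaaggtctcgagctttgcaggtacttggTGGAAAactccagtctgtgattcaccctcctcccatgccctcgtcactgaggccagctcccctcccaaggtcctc

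Slc6a6 (chr6:91684067-91759063) encodes TauT, the carrier of taurine and β-alanine, and had the highest level per kilobase of its class. Single-bout levels were 258, 286 and 257 CPM in nonloaded and 269, 251 and 257 CPM in loaded vehicle libraries, 301 and 309 CPM in L-BAIBA nonloaded and 339, 331 and 316 CPM in L-BAIBA loaded libraries. Again all 5 L-BAIBA libraries were above all 6 vehicle libraries, with a small step, and again both tibiae of the same mice are among them. The log2 difference was 0.34 ± 0.10 (adjusted p = 0.170) in loaded tibiae and 0.27 ± 0.077 (adjusted p = 0.145) over both tibiae, and neither call ended when any single library was left out. Against vehicle nonloaded tibiae the combination gave 0.30 ± 0.10 (adjusted p = 0.241), or 0.27 without vehicle nonloaded library 3, while L-BAIBA alone gave 0.19 ± 0.11 (adjusted p = 0.956). After 2 weeks Slc6a6 lay between 191 and 336 CPM, and the L-BAIBA and vehicle libraries overlapped, with −0.13 ± 0.14 (adjusted p = 0.965) over both tibiae.

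Slc6a12 and Slc6a6 were among the 3 of 49 members whose single-bout L-BAIBA and vehicle libraries did not overlap, beside 4.65% of all genes (3.05% higher and 1.59% lower). After 2 weeks 0 of 49 members were separated in this way, beside 0.212% of all genes (0.0963% higher and 0.116% lower).

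**Figure D3:**
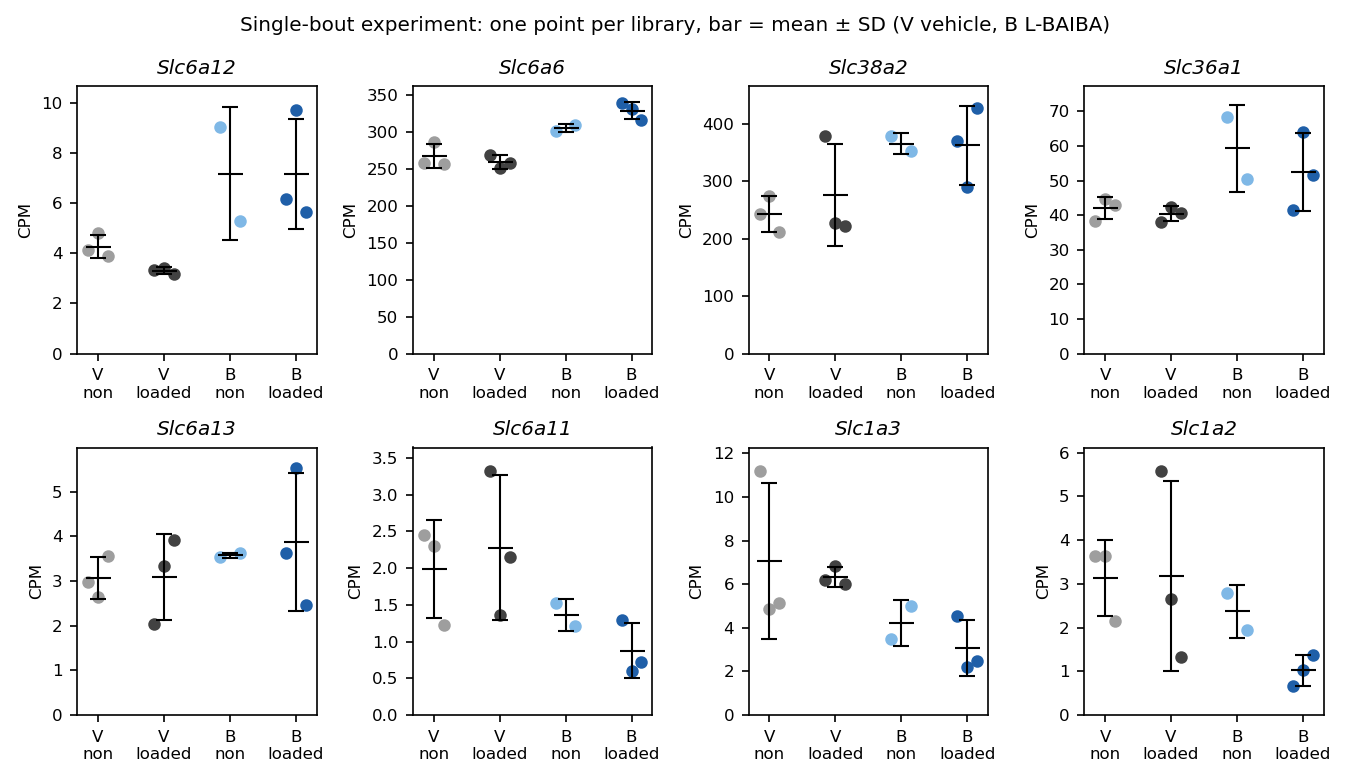
CPM of 8 members in the single-bout experiment, with 1 point per library and bars for the mean ± SD of vehicle (V) and L-BAIBA (B) nonloaded and loaded groups of 2 or 3 libraries. Slc6a12 and Slc6a6 were higher in all 5 L-BAIBA than in all 6 vehicle libraries, while the other 6 genes overlap between treatments. The libraries include both tibiae of the same mice and are not all independent.

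The remaining carriers of this class were less clear. Slc6a11, a GABA carrier, measured 3.33, 1.36 and 2.15 CPM in single-bout vehicle loaded and 1.30, 0.600 and 0.728 CPM in L-BAIBA loaded libraries, which did not overlap. Its log2 difference was −1.36 ± 0.42 (adjusted p = 0.175) for the combination against loading, or −0.95 without vehicle loaded library 1. It was −1.16 ± 0.42 (adjusted p = 0.251) for the combination, with p over 0.05 and values from −1.04 to −0.96 without any of 4 libraries (L-BAIBA loaded 2 and 3, vehicle nonloaded 1 and 2). Slc6a13, a GABA and taurine carrier (chr6:121300296-121337718, plus strand), measured 6.11, 5.68 and 4.02 CPM in 2-week vehicle nonloaded and 3.25, 3.60 and 2.89 CPM in L-BAIBA nonloaded libraries. These did not overlap, and the log2 difference was −0.70 ± 0.29 (adjusted p = 0.536), or −0.62 with mouse pool as a random block and −0.68, also with p over 0.05, with only the groups compared. Without vehicle nonloaded library 1 or 2, or L-BAIBA nonloaded library 1 or 3, it lay between −0.69 and −0.58 with p over 0.05. With 1 bout Slc6a13 gave 0.22 ± 0.35 (adjusted p = 0.972) for L-BAIBA alone.

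Slc6a8, the creatine carrier, was higher with loading alone after 2 weeks. It measured 37.3, 49.7 and 41.8 CPM in the nonloaded and 58.8, 75.7 and 55.1 CPM in the loaded libraries of vehicle mice, which did not overlap. The log2 difference was 0.56 ± 0.21 (adjusted p = 0.475), but 0.40 with mouse pool as a fixed block, where the unpaired vehicle loaded library 2 has no weight. The difference also missed 0.05 without vehicle loaded library 2 (0.41) or vehicle nonloaded library 1 (0.46) or 3 (0.53). Single-bout Slc6a8 ranged from 28.9 to 55.4 CPM in vehicle loaded libraries alone. Of 7 tested carriers known to accept β-amino acids or GABA-like substrates, 3 were higher and 2 lower for the single-bout combination against loading, beside 8.85% and 10% of all genes, and 0 were higher and 2 lower for 2-week L-BAIBA alone, beside 5.37% and 3.86%. The median log2 difference over the 7 was 0.31 and −0.22, beside −0.04 and −0.00 for all genes. The 7 were Slc6a6, Slc6a11, Slc6a12, Slc6a13, Slc6a20a, Slc36a1 and Slc36a2, and the 2 lower in the single-bout comparison were Slc6a11 and Slc6a20a. This list was chosen with earlier results of these data known, so its counts and medians are no result about these carriers as a group. Of the 9 carriers listed for this group, Slc6a14 and Slc6a20b were not analysed here.

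Among the proton-coupled carriers, Slc36a1 (chr11:55204340-55236330), the lysosomal and plasma membrane carrier PAT1, tended to lie higher with L-BAIBA in the single-bout experiment. It measured 38.4, 44.7 and 43.03 CPM in nonloaded and 38.2, 42.4 and 40.6 CPM in loaded vehicle libraries, 68.3 and 50.5 CPM in L-BAIBA nonloaded and 41.6, 64.0 and 51.8 CPM in L-BAIBA loaded libraries. The nonloaded groups did not overlap, whereas L-BAIBA loaded library 1 lay within the vehicle range. The log2 difference was 0.50 ± 0.18 (adjusted p = 0.956) for L-BAIBA alone, which was 0.26 without L-BAIBA nonloaded library 1 and 0.44 without vehicle nonloaded library 1. Over both tibiae it was 0.44 ± 0.12 (adjusted p = 0.145), a call that no single library ended. The combination against loading gave 0.38 ± 0.17 (adjusted p = 0.254), which missed 0.05 without any 1 of 8 of the 11 libraries, to 0.21 without L-BAIBA loaded library 2, and which also missed it with only the groups compared (0.38). After 2 weeks Slc36a1 ranged from 13.2 to 48.1 CPM, with −0.16 ± 0.26 (adjusted p = 0.966) over both tibiae.

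The window before the start of Slc36a1 is shown because this carrier sits in lysosomes and its promoter holds the letters GTCACGTG of the CLEAR element, known from lysosomal genes. It covers chr11:55204090-55204339 (GRCm38.p6, plus strand, RefSeq), and the capitals mark the match, read on the minus strand, whose first base in the printed order lies 31 bases before the start. Slc36a1 was the 1 member of 35 with this match, beside 1.87% of all genes.
Slc36a1: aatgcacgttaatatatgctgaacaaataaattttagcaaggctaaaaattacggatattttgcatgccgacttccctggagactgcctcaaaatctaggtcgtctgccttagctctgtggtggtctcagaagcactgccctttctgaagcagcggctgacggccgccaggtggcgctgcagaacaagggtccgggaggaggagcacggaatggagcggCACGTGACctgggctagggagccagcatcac

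Slc36a4, the proton-coupled carrier PAT4, had its lowest 2-week level in untreated bone. It measured 11.4, 11.4 and 10.6 CPM in nonloaded and 16.3, 21.2 and 12.3 CPM in loaded vehicle libraries, 16.7, 15.9 and 18.7 CPM in L-BAIBA nonloaded and 15.8, 14.004 and 13.1 CPM in L-BAIBA loaded libraries, so that all 9 treated or loaded libraries were above the 3 vehicle nonloaded ones. On the log2 scale the difference was 0.62 ± 0.20 (adjusted p = 0.536) for L-BAIBA alone, with no library ending the call. For loading alone it was 0.57 ± 0.20 (adjusted p = 0.475), but 0.32 with mouse pool as a fixed block and 0.36 without vehicle loaded library 2. The 3 libraries lowest in erythroid markers had 15.8 to 21.2 CPM and the 3 highest 11.4 to 14.004 CPM. Erythroid sums of the L-BAIBA nonloaded and the vehicle loaded libraries lay below those of the vehicle nonloaded ones. The part of the erythroid sum in these differences was not tested. Slc36a2, the carrier PAT2, measured 69.3, 94.1 and 76.1 CPM in 2-week vehicle nonloaded and 61.4, 64.0 and 57.0 CPM in L-BAIBA loaded libraries, which did not overlap. Its difference was −0.39 ± 0.16 (adjusted p = 1.00), or −0.26 without vehicle nonloaded library 2 and −0.34 without L-BAIBA loaded library 3.

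Slc38a4 (chr15:96994823-97055956, minus strand), the system A carrier SNAT4, had the smallest p of any member in the 2-week experiment. It measured 0.244, 0.523 and 0.824 CPM in nonloaded and 0.422, 1.02 and 1.10 CPM in loaded vehicle libraries, 2.66, 1.69 and 2.78 CPM in L-BAIBA nonloaded and 1.28, 1.06 and 0.902 CPM in L-BAIBA loaded libraries, from 4 to 31 counts per library. The L-BAIBA nonloaded libraries were above all others, and the L-BAIBA loaded libraries were above the vehicle nonloaded but overlapped the vehicle loaded ones. The log2 difference for L-BAIBA alone was 2.18 ± 0.56 (adjusted p = 0.536), with a range of 1.82 to 2.62 when each library was left out. Over both tibiae it was 1.25 ± 0.39 (adjusted p = 0.965), again ended by no single library. With 1 bout Slc38a4 lay between 0.3998 and 1.82 CPM and L-BAIBA alone gave −0.31 ± 0.64 (adjusted p = 0.976).

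The promoter window of Slc38a4 is printed beside its level, and it was 1 of the 6 members with TGGAAA letters. It covers chr15:97055957-97056206 (GRCm38.p6, minus strand, RefSeq, shown 5′ to 3′ along the gene), and the capitals mark 2 matches whose first bases lie 121 and 11 bases before the start.
Slc38a4: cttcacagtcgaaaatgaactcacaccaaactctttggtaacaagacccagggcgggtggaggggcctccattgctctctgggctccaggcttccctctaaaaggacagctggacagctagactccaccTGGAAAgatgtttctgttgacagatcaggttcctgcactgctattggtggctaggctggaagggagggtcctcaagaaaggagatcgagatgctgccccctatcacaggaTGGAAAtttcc

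Slc38a2 (chr15:96687392-96699698) had the highest mean per kilobase in both experiments, with a range that overlapped that of the next member. After 2 weeks it measured 309, 222 and 238 CPM in nonloaded and 429, 537 and 260 CPM in loaded vehicle libraries, 618, 341 and 317 CPM in L-BAIBA nonloaded and 474, 256 and 277 CPM in L-BAIBA loaded libraries. The L-BAIBA nonloaded libraries were above the vehicle nonloaded ones, and the other groups overlapped. L-BAIBA alone gave 0.73 ± 0.33 (adjusted p = 0.536), which was 0.36 without L-BAIBA nonloaded library 1 and 0.64 to 0.76 with p over 0.05 without vehicle loaded library 1 or vehicle nonloaded library 2 or 3. The 3 libraries lowest in erythroid markers held 474 to 618 CPM of Slc38a2, above the other 9.

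Single-bout Slc38a2 measured 243, 274 and 212 CPM in nonloaded and 379, 227 and 222 CPM in loaded vehicle libraries, 379 and 353 CPM in L-BAIBA nonloaded and 370, 291 and 428 CPM in L-BAIBA loaded libraries. All 5 L-BAIBA libraries were above 5 of the 6 vehicle libraries, the exception being vehicle loaded library 1. On the log2 scale the difference was 0.59 ± 0.24 (adjusted p = 0.956) for L-BAIBA alone, with values from 0.50 to 0.64 and p over 0.05 without any of 4 libraries (L-BAIBA nonloaded 1 and 2, vehicle nonloaded 1 and 3). It was 0.58 ± 0.22 (adjusted p = 0.259) for the combination, with 0.44 to 0.58 and p over 0.05 without L-BAIBA loaded library 1 or 3 or vehicle nonloaded library 1 or 3. Over both tibiae it was 0.49 ± 0.16 (adjusted p = 0.157), which no single library ended. The 3 libraries lowest in erythroid markers, 1 of them vehicle loaded library 1, held 379 to 428 CPM and the 3 highest 212 to 227 CPM.

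**Figure D4:**
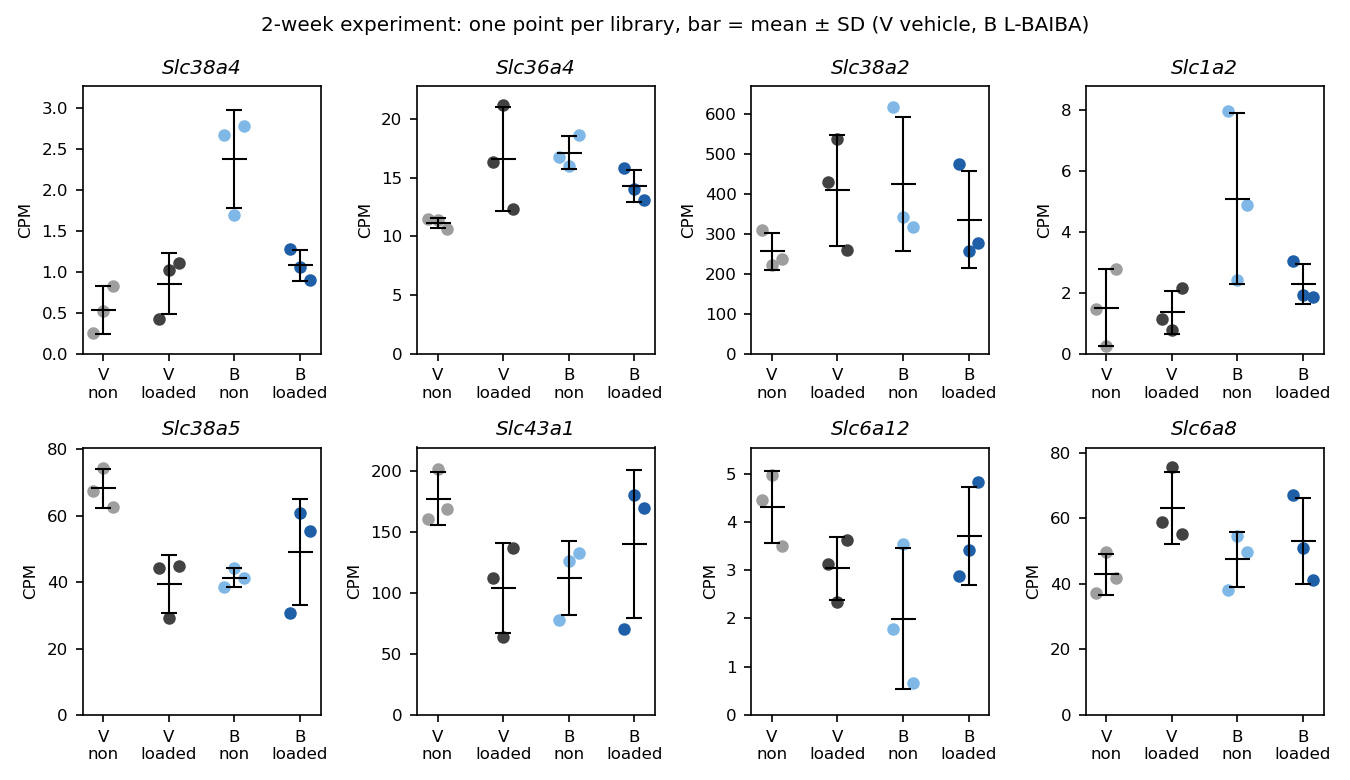
CPM of 8 members in the 2-week experiment, with 1 point per library and bars for the mean ± SD of vehicle (V) and L-BAIBA (B) nonloaded and loaded groups of 3 libraries. Slc38a4 was at 1.69 to 2.78 CPM in L-BAIBA nonloaded tibiae and at most 1.28 CPM elsewhere, and the 3 vehicle nonloaded libraries of Slc36a4 lay below the other 9.

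Of the glutamate carriers, Slc1a2 (EAAT2), Slc1a3 (EAAT1) and Slc1a1 (EAAT3), the first and second were lower with L-BAIBA after a single bout. Slc1a2 measured 3.64, 3.64 and 2.14 CPM in nonloaded and 5.58, 2.64 and 1.33 CPM in loaded vehicle libraries, 2.80 and 1.94 CPM in L-BAIBA nonloaded and 0.664, 1.03 and 1.38 CPM in L-BAIBA loaded libraries. The L-BAIBA loaded libraries were below both nonloaded groups and overlapped the vehicle loaded group through its library 3. On the log2 scale the difference was −1.60 ± 0.49 (adjusted p = 0.233) for the combination, ended by no library, and −1.61 ± 0.49 (adjusted p = 0.174) for the combination against loading, or −0.89 without vehicle loaded library 1. Loading within L-BAIBA mice gave −1.20 ± 0.53 (adjusted p = 1.00), with p over 0.05 without any of 7 libraries (−0.91 without L-BAIBA nonloaded library 1) or with RLE size factors (−1.16), and L-BAIBA over both tibiae gave −1.005 ± 0.36 (adjusted p = 0.171), or −0.83 with mouse pool as a random block, −1.01 with p over 0.05 when both tibiae of a pool were summed, and −0.89 without L-BAIBA nonloaded library 2.

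Slc1a3 measured 11.2, 4.87 and 5.14 CPM in nonloaded and 6.17, 6.84 and 5.99 CPM in loaded vehicle libraries, 3.48 and 4.98 CPM in L-BAIBA nonloaded and 4.56, 2.20 and 2.48 CPM in L-BAIBA loaded libraries. The L-BAIBA loaded libraries were below all 6 vehicle libraries. The combination gave −1.19 ± 0.36 (adjusted p = 0.234), ended by no library, and the combination against loading −1.04 ± 0.37 (adjusted p = 0.187), or −0.85 and −0.90 without L-BAIBA loaded library 2 or 3. No single library ended the call over both tibiae, where Slc1a3 gave −0.88 ± 0.27 (adjusted p = 0.147).

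After 2 weeks Slc1a2 lay higher instead in L-BAIBA tibiae. It measured 1.47, 0.261 and 2.78 CPM in nonloaded and 1.15, 0.782 and 2.14 CPM in loaded vehicle libraries, 7.99, 2.40 and 4.89 CPM in L-BAIBA nonloaded and 3.03, 1.93 and 1.87 CPM in L-BAIBA loaded libraries, and each L-BAIBA group overlapped a vehicle group. The vehicle nonloaded libraries held only 24, 4 and 27 counts of Slc1a2 and the L-BAIBA nonloaded ones 54, 44 and 44. L-BAIBA alone gave 1.78 ± 0.66 (adjusted p = 0.536), or 1.25 without vehicle nonloaded library 2 and 1.30 without L-BAIBA nonloaded library 1. Over both tibiae it was 1.24 ± 0.47 (adjusted p = 0.965), or 1.01 without the latter library. The difference of the combination between the experiments was −2.22 ± 0.88 (adjusted p = 0.438) for Slc1a2, and −1.69 without 2-week vehicle nonloaded library 2. For Slc6a13 it was 0.96 ± 0.42 (adjusted p = 0.449), or 0.71 with mouse pool as a random block. These were 2 of 48 members past the threshold, beside 10.4% of all 15188 genes, 1 higher (5.72%) and 1 lower (4.67%), so the count is no result about the family. Slc6a13 also missed 0.05 without any 1 of 6 libraries, with 0.62 without single-bout L-BAIBA loaded library 2.

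Several abundant members moved with markers of red cell precursors. Of 5 erythroid markers used for this purpose 3 were in the tables (Klf1, Alas2 and Slc4a1), and their summed level ranged from 1569.7 to 4469 CPM in the 2-week and from 1500.2 to 5234 CPM in the single-bout experiment. After 2 weeks the 3 lowest libraries were vehicle loaded library 2 and both libraries of 1 L-BAIBA mouse pool, and the vehicle nonloaded group was the highest as a group, at 3694 to 4469 CPM. Slc43a1 (LAT3) was at 64.0 to 77.7 CPM in the 3 lowest libraries and at 161 to 202 CPM in the 3 highest. Slc38a5 (SNAT5) was at 29.3 to 38.6 and 60.8 to 74.5 CPM in the same libraries, and Slc6a9 (GlyT1) at 35.4 to 43.2 and 88.6 to 118 CPM. With 1 bout the corresponding ranges were 61.7 to 72.3 and 175 to 203 CPM for Slc43a1, with Slc6a9 at 42.7 to 48.98 and 104 to 119 CPM. Slc1a5, Slc43a3 and Slc7a5 also had lower ranges in the 3 lowest than in the 3 highest libraries of both experiments.

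**Figure D5:**
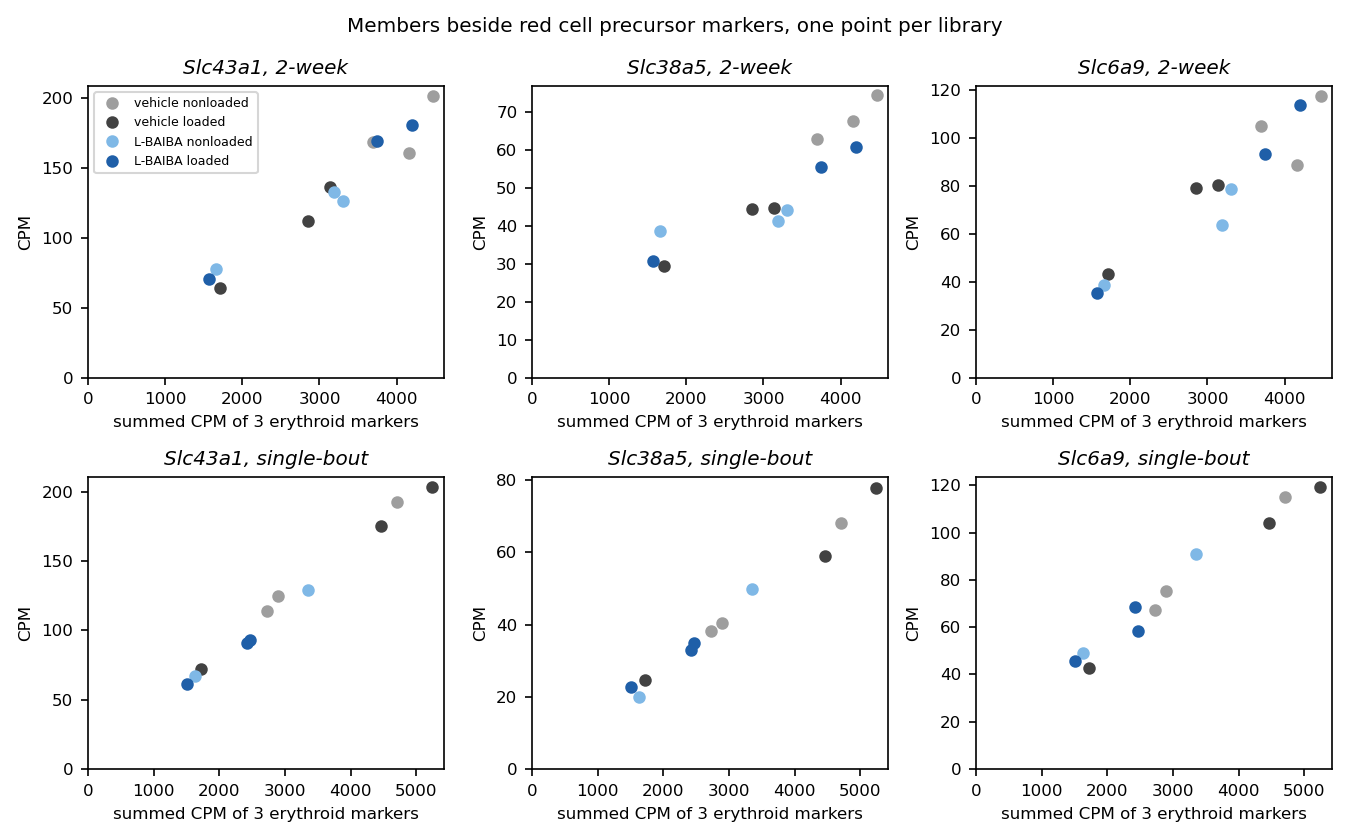
CPM of Slc43a1, Slc38a5 and Slc6a9 (vertical axes) against the summed CPM of 3 erythroid markers (horizontal axes) in each library of the 2-week and single-bout experiments, coloured by group. Libraries with low erythroid sums had low levels of the 3 carriers in both experiments, for example 64.0 to 77.7 CPM of Slc43a1 in the 3 lowest 2-week libraries.

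These same members gave several of the group differences. Slc38a5 measured 67.6, 74.5 and 62.7 CPM in 2-week vehicle nonloaded, 44.3, 29.3 and 44.7 CPM in vehicle loaded, 38.6, 44.2 and 41.3 CPM in L-BAIBA nonloaded and 30.8, 60.8 and 55.5 CPM in L-BAIBA loaded libraries. Vehicle nonloaded libraries were above all 9 others. On the log2 scale the difference was −0.79 ± 0.23 (adjusted p = 0.475) for loading alone and −0.72 ± 0.23 (adjusted p = 0.536) for L-BAIBA alone, and no single library ended either. The erythroid sum lay at 1714 to 3136 CPM in vehicle loaded and 1659 to 3299.7 CPM in L-BAIBA nonloaded libraries, below the vehicle nonloaded range too, and its part in these differences was not tested.

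Slc43a1 measured 161, 202 and 169 CPM in the nonloaded and 112, 64.0 and 137 CPM in the loaded libraries of 2-week vehicle mice, which did not overlap. On the log2 scale the difference was −0.76 ± 0.34 (adjusted p = 0.482), and p was over 0.05 without any of 6 libraries, to −0.51 without vehicle loaded library 2. After a single bout it measured 72.3, 175 and 203 CPM in vehicle loaded and 92.8, 90.6 and 61.7 CPM in L-BAIBA loaded libraries, which overlapped through vehicle loaded library 1. The combination against loading gave −0.88 ± 0.38 (adjusted p = 0.243), or −0.71 with mouse pool as a random block and −0.60 without vehicle loaded library 3. L-BAIBA over both tibiae gave −0.72 ± 0.28 (adjusted p = 0.196), or −0.66 with the block and −0.52 without L-BAIBA nonloaded library 1. Single-bout erythroid sums were 1500.2 to 3344 CPM in L-BAIBA and 1718 to 5234 CPM in vehicle libraries.

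Slc1a5, the ASCT2 exchanger, measured 237, 230 and 183 CPM in 2-week vehicle nonloaded and 104, 156 and 168 CPM in L-BAIBA nonloaded libraries, which did not overlap. L-BAIBA alone gave −0.60 ± 0.26 (adjusted p = 0.536), with values from −0.64 to −0.42 and p over 0.05 without vehicle nonloaded library 1 or 2 or L-BAIBA nonloaded library 1 or 2. Erythroid sums of the same groups were also separated, at 3694 to 4469 CPM in vehicle nonloaded and 1659 to 3299.7 CPM in L-BAIBA nonloaded libraries. Their part in the Slc1a5 difference was not tested. Slc6a20a, the imino acid carrier SIT1, measured 9.25, 11.6 and 22.5 CPM in single-bout vehicle nonloaded, 5.42, 16.6 and 22.0 CPM in vehicle loaded and 8.52, 6.06 and 5.204 CPM in L-BAIBA loaded libraries. The L-BAIBA loaded libraries were below the vehicle nonloaded ones but overlapped the vehicle loaded group. The combination gave −1.14 ± 0.51 (adjusted p = 0.297) and the combination against loading −1.16 ± 0.51 (adjusted p = 0.253), and the latter was −0.97 with mouse pool as a random block. With RLE size factors both were −1.12 and missed 0.05. Each had p over 0.05 without any of 5 libraries, to −0.66 without vehicle nonloaded library 3 and −0.75 without vehicle loaded library 3. The 3 single-bout libraries lowest in erythroid markers, 1 of them vehicle loaded library 1, held 5.204 to 5.98 CPM of Slc6a20a. The 3 highest held 16.6 to 22.5 CPM. After 2 weeks these ranges were 2.81 to 6.199 and 10.8 to 16.9 CPM. Single-bout erythroid sums of L-BAIBA loaded libraries lay below those of vehicle nonloaded ones. The part of the erythroid sum in the Slc6a20a differences was not tested.

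The heavy chain Slc3a2, the partner of several light chains, lay between 164 and 263 CPM in the 2-week libraries, with vehicle loaded at 243, 199 and 164 CPM and L-BAIBA loaded at 249, 205 and 177 CPM. After a single bout it measured 177, 173 and 204 CPM in nonloaded and 156, 214 and 211 CPM in loaded vehicle libraries, 124 and 168 CPM in L-BAIBA nonloaded and 172, 160 and 148 CPM in L-BAIBA loaded libraries. Both L-BAIBA groups lay below the vehicle nonloaded group, by a narrow gap, and overlapped the vehicle loaded group through its library 1. Over both tibiae the log2 difference was −0.31 ± 0.12 (adjusted p = 0.192), or −0.30 with mouse pool as a random block, −0.25 with both tibiae of a pool summed to 1 library (unadjusted p over 0.05) and −0.21 without L-BAIBA nonloaded library 1. Slc7a5 was at 57.0 to 146 CPM in the single-bout experiment and passed the threshold in no comparison.

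Slc7a8, the neutral exchanger LAT2, was lower with L-BAIBA after a single bout. It measured 31.5, 40.7 and 41.9 CPM in nonloaded and 35.5, 39.8 and 45.6 CPM in loaded vehicle libraries, 17.8 and 30.4 CPM in L-BAIBA nonloaded and 37.9, 24.6 and 25.7 CPM in L-BAIBA loaded libraries. The nonloaded groups did not overlap, by a narrow gap, and the loaded groups did. L-BAIBA alone gave −0.66 ± 0.26 (adjusted p = 0.956), which was −0.33 without L-BAIBA nonloaded library 1 and −0.61 and −0.58 without vehicle nonloaded library 2 or 3. Over both tibiae it was −0.56 ± 0.17 (adjusted p = 0.147), a call no single library ended, but −0.41 when both tibiae of a pool were summed to 1 library.

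Slc7a11 encodes xCT, which takes up cystine in exchange for glutamate. It measured 73.7, 16.5 and 19.5 CPM in 2-week vehicle nonloaded, 49.9, 25.7 and 13.4 CPM in vehicle loaded, 65.5, 15.4 and 9.33 CPM in L-BAIBA nonloaded and 41.1, 22.5 and 22.0 CPM in L-BAIBA loaded libraries. Library 1 was the highest in every group, and the groups overlapped. With 1 bout it lay between 8.24 and 20.4 CPM, and loading within L-BAIBA mice gave 0.69 ± 0.34 (adjusted p = 1.00). The window before its start, chr3:50443614-50443863 (GRCm38.p6, minus strand, RefSeq), is shown because it holds the letters TGATGNAA of the amino acid response element that ATF4 binds, and the capitals mark 2 matches, 66 and 47 bases before the start and on opposite strands. Of 35 members, 2 held these letters (Slc7a7 and Slc7a11), beside 3.53% of all genes.
Slc7a11: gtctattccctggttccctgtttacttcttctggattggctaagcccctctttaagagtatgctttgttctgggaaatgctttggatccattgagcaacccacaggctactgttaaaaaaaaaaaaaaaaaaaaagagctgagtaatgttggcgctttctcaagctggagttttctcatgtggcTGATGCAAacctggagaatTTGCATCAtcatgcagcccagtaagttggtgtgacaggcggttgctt

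Cationic carriers and rare members completed the differences. Slc7a2, the arginine and lysine carrier CAT2, measured 23.1, 27.3 and 27.5 CPM in the nonloaded and 33.7, 49.2 and 34.0 CPM in the loaded libraries of 2-week vehicle mice, which did not overlap. Loading alone gave 0.59 ± 0.25 (adjusted p = 0.475), but 0.43 with mouse pool as a fixed block and 0.38 to 0.63 with p over 0.05 without vehicle loaded library 2 or any 1 of the 3 vehicle nonloaded libraries. Slc7a14, a lysosomal member of the cationic family tested only in the single-bout experiment, measured 0.767, 0.498 and 0.228 CPM in nonloaded and 0.698, 0.389 and 0.323 CPM in loaded vehicle libraries, 0.506 and 0.0952 CPM in L-BAIBA nonloaded and 0.0289, 0.100 and 0.108 CPM in L-BAIBA loaded libraries. The L-BAIBA loaded libraries held 1, 3 and 4 counts and were below all 6 vehicle libraries. Slc7a14 was above 0.5 CPM before scaling in exactly the 4 libraries that the filter asks for, 3 of them vehicle libraries, and was no longer tested without any 1 of them. It is among the members counted in the single-bout experiment for the combination, the combination against loading, loading within L-BAIBA mice and L-BAIBA over both tibiae, but since its test depends on the groups where it was high, its fitted differences are plotted with those of the other members but not given as values. Slc7a13 (AGT1) had 0 to 13 counts in any 2-week library and likewise passed the filter in exactly 4, among them L-BAIBA nonloaded libraries 1 and 2. It is counted under 2-week L-BAIBA alone, where it was higher, and its fitted difference is not given for the same reason.

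Of the 9 members tied to the amino acid response through ATF4 (Slc7a11, Slc7a5, Slc3a2, Slc7a1, Slc7a3, Slc6a9, Slc38a2, Slc1a4 and Slc1a5), 1 was higher and 1 lower in 2-week L-BAIBA alone, namely Slc38a2 and Slc1a5, beside 5.37% and 3.86% of all genes. In the single-bout combination 1 was higher (Slc38a2) and 0 lower, beside 7.06% and 9.59%. The median log2 difference over the 9 was −0.31 and −0.21, beside −0.00 and 0.02 for all genes. Of 18 further genes of that response, such as Asns, Atf4, Ddit3 and Chac1, 2 were higher and 1 lower in 2-week L-BAIBA alone, and 0 passed in the single-bout combination. In 2-week loading alone 3 of the 18 were higher and 1 lower, beside 6.16% and 4.01% of all genes, and in the single-bout combination against loading 3 were higher and 0 lower, beside 8.85% and 10%. Chac1, a glutathione-degrading enzyme, was the 1 of 18 past the threshold under single-bout loading alone, beside 1.19% of all genes, with −1.07 ± 0.27 (adjusted p = 1.00). For amino acid carriers of other families, 14 of 16 listed were tested. Of these 1 was higher and 2 were lower in the single-bout combination, among them Slc15a2, the dipeptide carrier PEPT2, at −1.13 ± 0.51 (adjusted p = 0.296), and 1 was higher and 0 lower in 2-week L-BAIBA alone. Over both tibiae 2 of the 14 were higher and 2 lower after a single bout, beside 10.8% and 10.5% of all genes. These lists too were chosen with earlier results of these data known, so their counts are no result about these genes as groups.

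DESeq2 and edgeR's likelihood ratio test were less strict than the quasi-likelihood test. At an adjusted p under 0.05 DESeq2 called 5 members for single-bout L-BAIBA over both tibiae (among them Slc6a12, Slc6a6, Slc36a1 and Slc1a3) and the likelihood ratio test 3 (among them Slc6a12 and Slc36a1), beside 6.66% and 4.01% of all genes. For the combination against loading DESeq2 called 4 (among them Slc6a12, Slc6a6 and Slc1a2) and the likelihood ratio test 4 (among them Slc6a12, Slc1a2 and Slc7a14), beside 5.59% and 3.83%. For the combination they called 1 each, Slc6a6 and Slc7a14, beside 2.26% and 1.66%. Slc7a14 passed the filter in exactly 4 libraries, mostly vehicle libraries where it was high. Its calls in both comparisons depend on that filter and are no support for a lower level with L-BAIBA. In the remaining comparisons both called 0 members. Of all genes, DESeq2 called 0.0128% in each of 2-week loading alone and 2-week L-BAIBA alone, 0.00642% for 2-week L-BAIBA over both tibiae, 0.0323% for single-bout L-BAIBA alone, 0.0129% for single-bout loading within L-BAIBA mice and 0.0395% for the combination between experiments. The likelihood ratio test called the same shares except for 0% for 2-week L-BAIBA over both tibiae, 0.0258% for single-bout L-BAIBA alone and 0.00645% for single-bout loading alone.

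The interaction of loading and L-BAIBA asks whether the loading difference in L-BAIBA mice is the same as in vehicle mice. After a single bout 0 of 49 members passed the threshold, beside 2.01% of all genes (0.49% higher and 1.52% lower), and 6 did with mouse pool as a fixed block, beside 8.06%. After 2 weeks 6 did, beside 6.6% of all genes, 3 of them higher (2.47%) and 3 lower (4.13%), and 14 or 12 with the pool as a random or a fixed block, beside 16.1% and 11.8%. The values were 1.04 ± 0.33 for Slc38a5 (adjusted p = 0.724), −0.84 ± 0.28 for Slc36a4 (adjusted p = 0.724), −1.86 ± 0.77 for Slc38a4 (adjusted p = 0.724), 1.09 ± 0.48 for Slc43a1 (adjusted p = 0.724), −1.02 ± 0.46 for Slc38a2 (adjusted p = 0.724) and 0.67 ± 0.31 for Slc43a3 (adjusted p = 0.724). Slc38a5 and Slc36a4 stayed under 0.05 with each library left out, although Slc36a4 missed it with mouse pool as a fixed block (−0.58), while the other 4 missed 0.05 without any 1 of 7 to 9 libraries. The count and the share of all genes both moved when a library was left out. There were 2 members without any 1 of vehicle loaded library 2, vehicle nonloaded library 2 and L-BAIBA loaded libraries 2 and 3 (2.56% to 3.93% of all genes), 3 without vehicle nonloaded library 1 (5.06%) and 14 without L-BAIBA loaded library 1 (18.2%). Vehicle loaded library 2 and L-BAIBA loaded library 1 are among the 3 libraries lowest in erythroid markers, and the other libraries just named are not. L-BAIBA loaded library 1 also held the fewest counts of the experiment, 6368289. The part of erythroid cells or of depth in these changes was not tested.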

How the data were processed

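RNA from osteocyte-enriched cortical bone of loaded and nonloaded tibiae was sequenced in 23 libraries. The authors deposited read counts per gene. Per the submitters' processing notes, reads were aligned with STAR 2.5.2b to mm10 and counted with featureCounts of Subread 1.5.1, and the study's methods state that uniquely mapped reads were counted by strand on RefSeq genes. The deposited tables also hold log2 RPKM columns and the authors' own comparisons (fold change, log2 fold change, p-value and FDR), which were not used. Deposited exon lengths served for levels per kilobase.

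From the counts, CPM were computed with TMM scaling over the 4 groups of each experiment. Genes were kept at a CPM above 0.5 before TMM scaling in 4 libraries or more and tested with edgeR 4.0.16 (R 4.3.3) by quasi-likelihood, all 4 groups fitted together, with Benjamini-Hochberg adjustment over all genes tested. The code was tested on simulated data. Alternatives were DESeq2 1.42.0, edgeR's likelihood ratio test, RLE size factors, other filters, only the groups compared, each library left out, and the mouse pool as a block (random with limma 3.58.1, or fixed). Figures were drawn with Python 3.11.15, pandas 2.3.3 and matplotlib 3.10.9.

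The pool names in the labels pair both tibiae of the same mice, not the replicate numbers. Deviations from the group means correlated at 0.156 to 0.563 between the tibiae of a pool in the 2-week and at 0.165 to 0.466 in the single-bout experiment, and the correlation of the block was 0.441 and 0.406. Intervals from counting were not used, and total counts of 6368289 to 37562527 per library set the precision of low genes.

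Genes named with values are the members with an unadjusted p under 0.05 in a comparison, the carriers of β-amino acids and GABA, the 10 highest members per kilobase, Slc38a4, and members tied to ATF4. Members and lists were chosen with earlier results of these data known. Results on 1 member and on 1 of the listed cell markers are not reported here, and sums and lists were computed without them, while counts over all members include the former. Promoter windows are from RefSeq (GRCm38.p6), with entries for 35 of 51 members.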

Additional observations from a re-analysis of the deposited data

Results flagged for a closer look

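For 6 of 49 members, beside 6.6% of all genes, the loading difference after 2 weeks was not the same in L-BAIBA and vehicle mice, by a test of the difference itself at an unadjusted p under 0.05 (edgeR quasi-likelihood, adjusted p = 0.724 for each). The log2 values were 1.04 for Slc38a5, −0.84 for Slc36a4, −1.86 for Slc38a4, 1.09 for Slc43a1, −1.02 for Slc38a2 and 0.67 for Slc43a3. The count ran from 2 to 14 when 1 library was left out, and 4 of the 6 lost the call without any 1 of 7 to 9 libraries. In the 3 libraries with the lowest erythroid sums Slc38a5, Slc43a1 and Slc43a3 were lower (for Slc43a3 108 to 129 CPM, against 182 to 215 CPM in the 3 highest) and Slc38a2 and Slc36a4 higher, and the part of those cells was not tested.

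For 2 of 48 members, below the 10.4% of all genes past the same threshold, the difference between L-BAIBA loaded and vehicle nonloaded tibiae was not the same in the 2 experiments. The single-bout minus 2-week log2 value was −2.22 for Slc1a2 (adjusted p = 0.438) and 0.96 for Slc6a13 (adjusted p = 0.449), both in edgeR. The former missed 0.05 without 2-week vehicle nonloaded library 2 and the latter without any 1 of 6 libraries. Duration of treatment, number of bouts and sequencing depth differ together between the experiments and cannot be told apart.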

How the results depend on the processing

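Counts below are members at an unadjusted p under 0.05, each with the share of all genes past that threshold in the same setting. With DESeq2 the 2-week counts were 8 for loading alone (12.01%) and 1 for loading within L-BAIBA mice (2.21%), and the single-bout counts 4 for loading within L-BAIBA mice (4.09%) and 1 for the interaction (2.38%). The likelihood ratio test gave 2 for the 2-week combination (2.29%), 1 for 2-week loading within L-BAIBA mice (2.16%), 10 for the 2-week interaction (7.26%) and 1 for the single-bout interaction (2.67%). Both tools gave 4 for the combination between experiments (12.3% and 11.2%). With only the groups compared, the 2-week counts were 9 for loading alone (14.4%), 1 for the combination against loading (1.87%) and 2 for loading within L-BAIBA mice (1.20%). A filter of CPM over 1 gave 1 for loading within L-BAIBA mice in each experiment (1.48% and 2.28%), and RLE size factors gave 0 for it after a single bout (3.22%). The cause was not tested.

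With the mouse pool as a random replicate block the 2-week counts were 13 for loading alone (19.1%), 1 for the combination against loading (1.99%), 5 for loading within L-BAIBA mice (5.86%) and 14 for the interaction (16.1%), and the single-bout counts 1 for loading alone (4.66%) and 1 for the interaction (5.47%). With a fixed block they were 8 for 2-week loading within L-BAIBA mice (6.86%) and 12 for the 2-week interaction (11.8%), and 4, 7 and 6 for single-bout loading alone (10.6%), loading within L-BAIBA mice (5.39%) and interaction (8.06%).

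With each library left out, 2-week counts ranged from 1 to 9 for loading alone (2.56% to 15.7% of all genes), 4 to 14 for L-BAIBA alone (3.91% to 12.3%), 0 to 4 for the combination (0.856% to 4.12%), 0 to 6 for the combination against loading (0.432% to 10.6%), 0 to 5 for loading within L-BAIBA mice (0.965% to 6.18%), 2 to 14 for the interaction (2.56% to 18.2%) and 2 to 5 for L-BAIBA over both tibiae (1.77% to 6.94%). Single-bout counts ranged, in the same order, from 0 to 1 (0.431% to 2.98%), 1 to 6 (0.978% to 7.68%), 6 to 11 (11.04% to 19.2%), 6 to 16 (11.5% to 22.2%), 0 to 4 (0.815% to 5.64%), 0 to 3 (1.02% to 4.43%) and 9 to 19 (10.8% to 23.8%), and those between experiments from 1 to 6 (6.09% to 13.7%). Leaving out 1 single-bout L-BAIBA nonloaded library leaves a lone sample, assumed to vary like the other groups. Of 1157 alternative values for 63 results on single members, 979 kept direction and side of the threshold, 178 kept direction at an unadjusted p over 0.05, and 0 reversed. The 63 were picked for an unadjusted p under 0.05 in the same libraries, and the settings share most of the data. Few reversals were therefore likely, and this tally is no test of the results. Depth limits members with few counts per library, such as Slc7a3 with 4 to 13 and Slc7a13 with 0 to 13 after 2 weeks.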

Other observations

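NFAT5 is the transcription factor of the response to high tonicity, and Slc5a3, the myo-inositol carrier, is among its known targets. In a list added after seeing the data, Nfat5 and Slc5a3 were both higher with 2-week loading alone, at log2 0.92 ± 0.28 (SE, adjusted p = 0.475) and 0.62 ± 0.21 (adjusted p = 0.475) in edgeR's quasi-likelihood test. Of all genes, 6.16% were higher in 2-week loading alone at an unadjusted p under 0.05. After a single bout the values of Nfat5 and Slc5a3 for loading alone were 0.07 and −0.09. For single-bout L-BAIBA over both tibiae, where Slc6a12 was higher, they were −0.04 and −0.22. The single-bout combination against loading, where Slc6a12 was also higher, gave −0.17 for both. In 2-week vehicle mice Slc6a12 measured 3.14, 2.35 and 3.63 CPM in loaded and 4.46, 4.97 and 3.50 CPM in nonloaded libraries. Whether NFAT5 has a part in any Slc6a12 difference was not tested. Akr1b3, the third gene of that list, was not analysed here.

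Slc15a2, the dipeptide carrier PEPT2, gave −1.39 ± 0.39 (adjusted p = 0.145) for single-bout L-BAIBA over both tibiae, and 0.45 ± 0.22 (adjusted p = 0.965) for the same comparison after 2 weeks. Chac1, which degrades glutathione, gave −1.07 ± 0.27 (adjusted p = 1.00) for single-bout loading alone and 1.11 ± 0.27 (adjusted p = 0.170) for the combination against loading. These comparisons share the vehicle loaded libraries.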
